A study of Mus musculus with 26 samples.

Results

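Cytosolic ribosomal protein genes encode the protein subunits of the ribosomes that translate nuclear-encoded mRNAs. They were taken as the rows of the deposited expression table whose symbol begins with Rpl, Rps or Rplp followed by a number, or is Rpsa, leaving out rows named as pseudogenes and the S6 kinase genes. The rule gave 81 rows of the 38828 in that table, which was joined by Ensembl identifier to a count table of 39017 genes. By name, 41 rows are proteins of the large subunit, 30 of the small subunit and 3 of the stalk, and 6 are paralogs (Rpl3l, Rpl7l1, Rpl10l, Rpl22l1, Rpl39l and Rps27l). The remaining row is labelled Rpl24, but its identifier belongs to Zbtb11, a zinc finger gene, in GENCODE M21. It is counted among the 81 because the rule takes it, and its values are not read as those of a ribosomal protein gene. The gene that GENCODE names Rpl24 stands in the table in capitals and falls outside the rule, as do Rpl13, Rpl36al and Rps3a1.

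Sensory neurons of mouse dorsal root ganglia (DRG) had been sorted by fluorescent reporter into 8 subtypes, giving 26 libraries. Nonpeptidergic nociceptors (unmyelinated pain neurons) came from MrgD-EGFP mice, and peptidergic nociceptors from CGRP-GFP mice. The low-threshold mechanoreceptors (LTMRs, touch neurons) were C-LTMRs from ThCreER;R26tdtomato(Ai14) mice, Aδ-LTMRs from TrkBCreER;R26tdtomato(Ai14) mice, and Aβ RA-LTMRs from Npy2r-GFP mice. Aβ SA1-LTMRs and Aβ Field-LTMRs both came from mice carrying TrkCCreER and the Retf(GFP) allele and differed in the time of tamoxifen, which was 3 mg at E12.5 (embryonic) for SA1 and 2 mg per day on postnatal days 13 to 15 for Field. C-LTMR mice received 2 mg per day on postnatal days 13 to 15, and Aδ-LTMR mice 2 mg per day on embryonic days 12 to 13. Proprioceptors (muscle sensory neurons) came from PVIRESCre;R26tdtomato(Ai14) mice and from thoracic ganglia alone, because this line also marks some touch neurons at limb levels. All mice were at postnatal day 23 or older, each library pooled several mice and several sorts, and the RNA of every group was amplified. The p-values below rest on the spread between these pooled libraries. Each subtype had 3 libraries except the Aβ RA-LTMRs, which had 5. A reporter marks every cell in which its promoter or Cre was active, so each group is as pure as its line and its sort.

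The ribosome is built from a large and a small subunit, each a set of single-copy proteins on ribosomal RNA, with the acidic P proteins forming a stalk on the large subunit that recruits elongation factors. Because the proteins are assembled in fixed proportion, cells usually make their mRNAs in a coordinated way. Many of these mRNAs begin with a terminal oligopyrimidine (TOP) tract, a C followed by a run of C and T, through which the kinase complex mTORC1 and the binding protein Larp1 control their translation. In sensory neurons, mRNAs of ribosomal proteins are also found in axons.

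TOP tracts were looked for as a C followed by C or T in a run of at least 8 letters within 15 bases either side of the RefSeq start (build GRCm38.p6), and 60 of the member genes had an entry. A tract was present in 26 of these 60 (43.3%), against 10.8% of the 27025 genes with an entry, and on the other strand in 5% of the members and 11.9% of all genes. The letters CTTTC were found in 26.7% of the members and 4.76% of all genes (on the other strand, 1.67% and 4.21%). The following 30-base windows belong to genes on which the results turn, with the tract in capitals where one was found.
Rps9, chr7:3704026-3704055, plus strand: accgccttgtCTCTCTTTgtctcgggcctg
Rpl4, chr9:64173372-64173401, plus strand: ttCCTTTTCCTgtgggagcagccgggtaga
Rps2, chr17:24720048-24720077, plus strand: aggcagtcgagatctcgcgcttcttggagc
Rps18, chr17:33955651-33955680, minus strand: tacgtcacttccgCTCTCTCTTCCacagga
Rpl27a, chr7:109519180-109519209, plus strand: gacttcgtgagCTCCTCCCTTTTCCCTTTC
Rpl15, chr14:18270972-18271001, minus strand: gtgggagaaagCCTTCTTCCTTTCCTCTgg
Rps6, chr4:86857353-86857382, minus strand: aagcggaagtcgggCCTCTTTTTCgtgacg
In the Rps2 window no run of that length was present at the RefSeq start. These matches describe letters near an annotated start and say nothing of the tract's use in these neurons.

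Total counts per library ranged from 10706522 (Field library 2) to 66309214 (C-LTMR library 3), and the member genes took 13110 to 195772 counts. Exonic reads made up 45.7% (RA library 5) to 82.9% of reads, and read lengths differed between libraries (up to 51 bases in Aδ libraries 1 and 2, at least 25 bases in RA libraries 1 to 3 and all SA1 libraries, and 15 to 50 bases in the rest). The 4 genes listed as nonpeptidergic nociceptor markers averaged 9.63 as log2 CPM (CPM being counts scaled to a common library size) in the nonpeptidergic libraries and 2.38 to 6.64 in the other subtypes. The satellite glia list, 16 genes of the cells that wrap DRG neurons, was detected in every subtype with none at 0. Its summed level was lowest in nonpeptidergic nociceptors (621 to 726 CPM) and highest in proprioceptors (4838 to 7124 CPM). In bulk RNA, fewer cells of a type and less RNA per cell cannot be told apart.

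Ribosomal protein mRNAs took a larger share of the counts in nonpeptidergic nociceptors than in any other subtype. The 81 rows together made up 0.339% ± 0.0154 of all counts (SD, 3 libraries) in nonpeptidergic nociceptors, with libraries between 0.322% and 0.351%. The share was 0.183% ± 0.0566 in proprioceptors, 0.151% ± 0.0407 in SA1-LTMRs, 0.149% ± 0.00496 in C-LTMRs and 0.136% ± 0.0365 in RA-LTMRs (5 libraries). It was 0.128% ± 0.00947 in peptidergic nociceptors, 0.125% ± 0.0571 in Aδ-LTMRs and 0.121% ± 0.0423 in Field-LTMRs. No other library reached the range of the nonpeptidergic libraries, the highest being proprioceptor libraries 2 and 3 at 0.215% each. The ratio of the nonpeptidergic mean to that of another subtype ran from 1.86 for proprioceptors to 2.80 for Field-LTMRs. The ranges of the other 7 subtypes overlapped one another, except that the C-LTMR libraries (0.145% to 0.154%) lay above the peptidergic ones (0.119% to 0.138%).

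**Figure D1:**
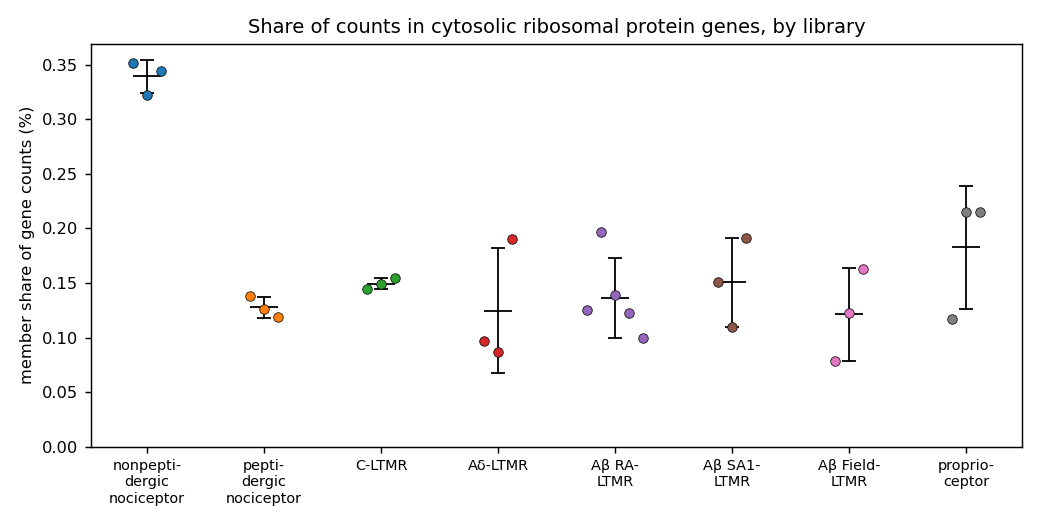
Share of all counts taken by the 81 ribosomal protein rows in each library (percent, y axis), by subtype (x axis), with a line at each group mean. The 3 nonpeptidergic libraries lie at 0.322% to 0.351%, above all others. The Aδ-LTMR, RA-LTMR, SA1-LTMR, Field-LTMR and proprioceptor libraries are each spread over a wide range.

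Expression differed across subtypes for most of the genes, as it did for most of the transcriptome. Of the 81 rows, 79 passed the filter on low counts (Rpl10l and Rpl39l did not), and 68 of the 79 differed over the 8 subtypes in edgeR's quasi-likelihood F test at an adjusted p under 0.05, beside 78.3% of all 17411 genes tested. That difference in share was not tested. By role, these were 34 of 41 large-subunit genes, 26 of 30 small-subunit genes, 3 of 3 stalk genes, 4 of 4 paralogs tested and the row labelled Rpl24. Among the 11 genes that did not pass were Rpl5, Rpl6, Rpl9, Rpl10, Rpl19, Rpl23a, Rpl27a, Rps6, Rps12 and Rps23. The smallest adjusted p at a mean of at least 5 CPM belonged to Rps2 (7.8e-07), Rps9 (5.38e-06) and Rpl30 (8.21e-06).

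Set against the mean of the other 7 subtypes, nonpeptidergic nociceptors stood out by direction. In these neurons 68 of the 79 genes tested were higher and 1 was lower, where 26.0% of all genes were higher and 22.9% lower. The single row that was lower is the one labelled Rpl24. The median fitted log2 fold change of the 79 was 1.24, beside 0.02 over all genes. With a fold of at least 1 on the log2 scale required as well, 60 genes were higher, beside 13.7% of all genes. Of the large subunit 34 of 41 were higher (median 1.22), of the small subunit 28 of 30 (median 1.27), of the stalk 3 of 3 (median 1.74) and of the paralogs 3 of 4. In 40 members every nonpeptidergic library lay above every other library, beside 9.78% of all genes.

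**Figure D2:**
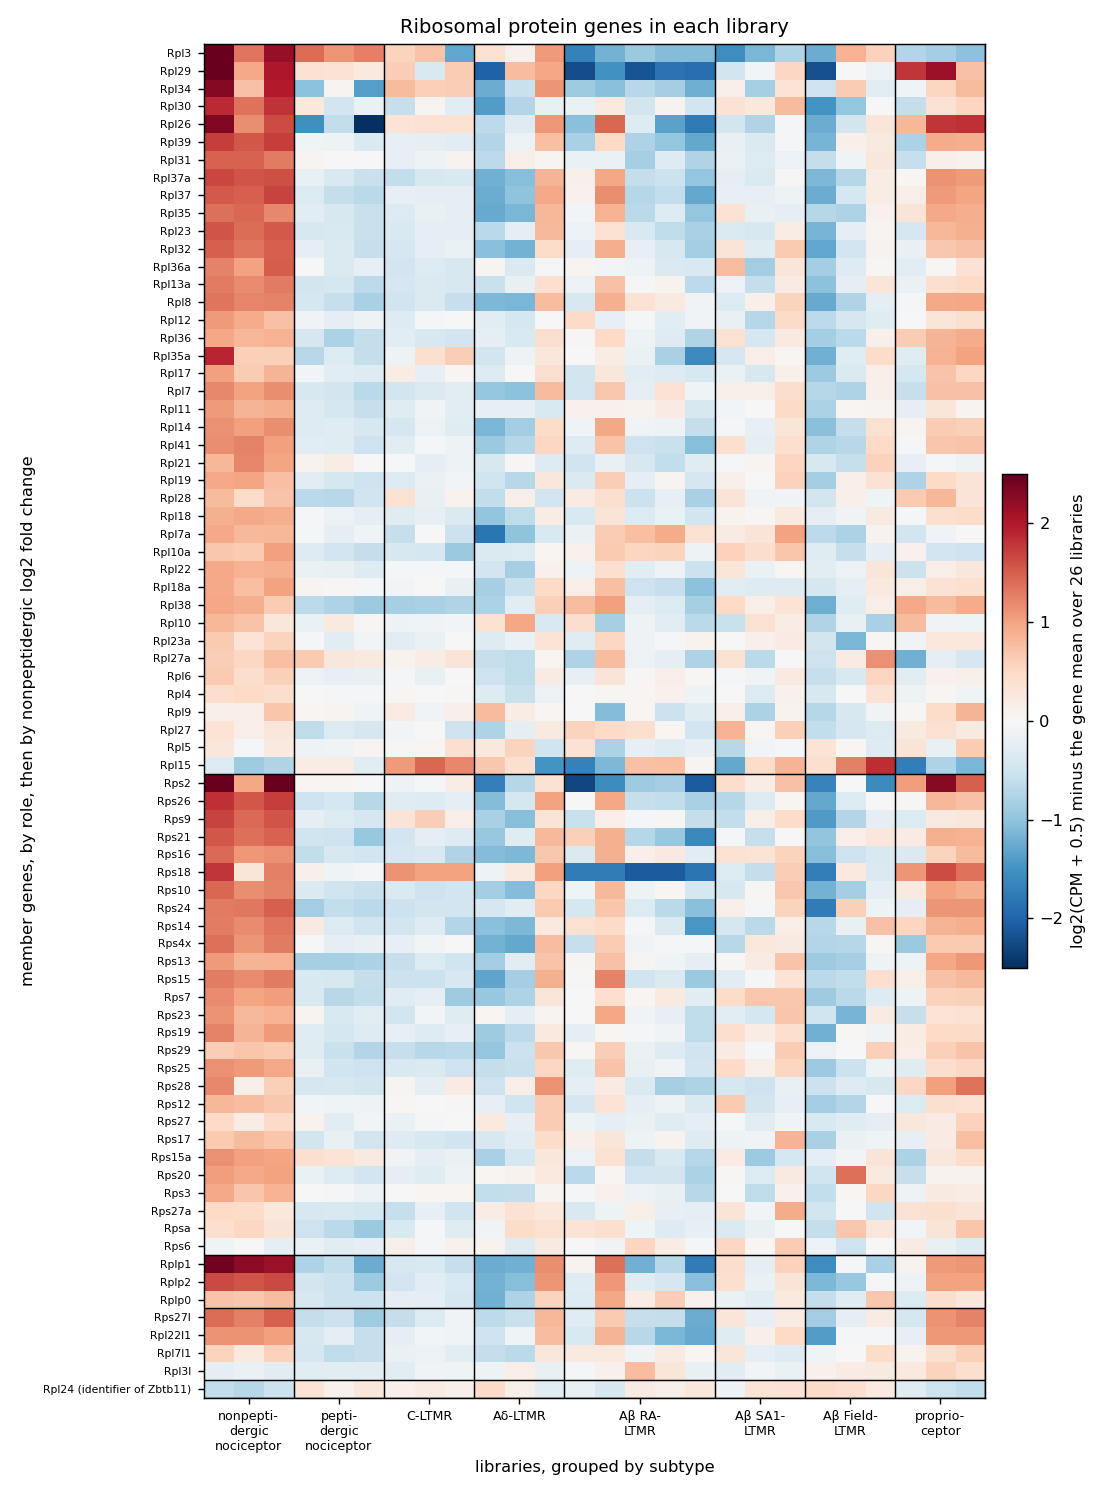
Level of members that passed the filter in each of the 26 libraries, as log2(CPM + 0.5) minus the gene's mean over libraries (colour scale), with genes in rows by role and libraries in columns by subtype. The 3 nonpeptidergic columns are red for nearly all rows. Within groups such as the Aδ-LTMRs, RA-LTMRs, Field-LTMRs and proprioceptors, some libraries are redder than others across most rows at once.

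Among large-subunit genes, Rpl13a and Rpl4 had the highest mean RPKM over all libraries (242 and 166). Rpl13a also acts in the interferon response of myeloid cells, and Rpl4 lines the exit tunnel. In mean CPM per kilobase of annotated transcript Rpl13a ranked lower, at 56.9, against 170 for Rpl4 and 70.8 for Rpl15. Rpl13a had 98.9, 90.3 and 98.8 CPM in the nonpeptidergic libraries and 19.4 to 66.8 CPM in the others. These ranges did not overlap, and the log2 fold change was 1.41 ± 0.20 (SE; adjusted p = 2.23e-06). Rpl4 had 349, 365 and 347 CPM in nonpeptidergic nociceptors, against 257, 251 and 251 CPM in peptidergic nociceptors, 265, 255 and 261 CPM in C-LTMRs and 206, 176 and 231 CPM in Aδ-LTMRs. Its log2 fold change was smaller, at 0.52 ± 0.11 (adjusted p = 0.000437), and all 3 nonpeptidergic libraries still lay above every other library. Rpl30, whose protein also binds its own transcript in yeast, had 29.0, 20.2 and 27.6 CPM in nonpeptidergic nociceptors and 2.35 to 13.4 CPM elsewhere, a log2 fold change of 1.94 ± 0.24 (adjusted p = 1.81e-07). Rpl23, a member of the complex that restrains Mdm2, had 57.7, 51.2 and 56.3 CPM there and 8.31 to 35.9 CPM elsewhere (1.65 ± 0.23, adjusted p = 1.85e-06).

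Large-subunit proteins known for roles outside or beyond the ribosome were not uniform. Rpl11, which binds Mdm2 and stabilises p53 together with Rpl5, had 5.86, 4.99 and 5.22 CPM in nonpeptidergic nociceptors and 1.27 to 3.74 CPM in the other libraries, without overlap (log2 fold change 1.22 ± 0.21, adjusted p = 2.12e-05). Rpl5 itself was counted at 1.02 CPM or less in every library, and its log2 fold change of 0.30 ± 0.50 did not pass (adjusted p = 0.663). Rpl22, mutated in some T-cell leukaemias, was higher in nonpeptidergic nociceptors by 1.00 ± 0.16 on the log2 scale (76.8, 73.1 and 73.9 CPM, against 22.1 to 52.6 CPM elsewhere). Rpl10, which takes part in joining the subunits, had 1.94, 1.76 and 1.18 CPM in nonpeptidergic nociceptors and 0.281 to 2.19 CPM elsewhere, with overlap and no call. Rpl38, needed for skeletal patterning in the mouse, had 12.7, 12.2 and 10.1 CPM in nonpeptidergic nociceptors but as much in proprioceptors (12.7, 11.2 and 12.3 CPM). Its level in peptidergic nociceptors was 3.80, 3.50 and 3.11 CPM and in C-LTMRs 3.34, 3.39 and 3.52 CPM, below every A-fibre library except Field library 1 (2.40 CPM), RA library 3 (3.32 CPM) and Aδ library 1 (3.41 CPM).

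In the small subunit, Rps9, which helps form the mRNA entry tunnel, had 140, 116 and 128 CPM in nonpeptidergic nociceptors. The other small-diameter groups had 36.5, 33.7 and 32.1 CPM (peptidergic nociceptors) and 53.8, 65.6 and 47.8 CPM (C-LTMRs), and the Aδ-LTMRs had 24.3, 20.1 and 53.5 CPM. The RA-LTMR libraries 1 to 5 had 41.3, 43.5, 28.3, 28.8 and 48.1 CPM, the SA1-LTMRs 27.6, 47.2 and 58.9 CPM, the Field-LTMRs 15.7, 25.6 and 36.2 CPM, and the proprioceptors 33.7, 49.96 and 52.3 CPM. The nonpeptidergic libraries were above all others, and the log2 fold change was 1.73 ± 0.21 (adjusted p = 1e-07). Aδ library 3, RA library 5 and proprioceptor libraries 2 and 3 were each above the rest of their group for this gene, and the same libraries were high for most members.

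Rps3, a mRNA entry protein that also takes part in DNA repair, had 140, 117 and 134 CPM there and 44.6 to 104 CPM elsewhere (0.92 ± 0.17, adjusted p = 4.68e-05). Rps2, one of the proteins at the mRNA entrance, had the largest fold at a mean of 5 CPM or more, 2.74 ± 0.35 on the log2 scale (adjusted p = 2.95e-07). Its nonpeptidergic libraries were uneven, at 42.2, 9.38 and 30.9 CPM, and library 2 lay below all 3 proprioceptor libraries (9.93, 23.8 and 13.6 CPM). Rps19, mutated in Diamond-Blackfan anaemia, had 13.7, 10.4 and 12.1 CPM in nonpeptidergic nociceptors and 2.10 to 7.95 CPM elsewhere. Rps14, lost in a form of human myelodysplasia, had 44.4, 41.5 and 46.3 CPM there and 6.24 to 34.5 CPM elsewhere, and X-linked Rps4x had 43.8, 35.7 and 41.2 CPM and 6.50 to 28.5 CPM. Neither range overlapped.

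The stalk genes were all higher in nonpeptidergic nociceptors, but not alike in size. Rplp1, an acidic protein that contacts the elongation factors, had 210, 186 and 177 CPM in nonpeptidergic nociceptors and 11.3 to 102 CPM in the other libraries, a log2 fold change of 2.41 ± 0.39 (adjusted p = 1.37e-05). Its partner Rplp2 had 97.0, 92.6 and 97.3 CPM there and 13.3 to 66.2 CPM elsewhere (1.74 ± 0.32, adjusted p = 6.89e-05). Neither gene overlapped. Rplp0, the base to which both bind, had 45.6, 44.3 and 47.1 CPM, within reach of RA library 5 (54.5 CPM), and rose by 0.81 ± 0.25 (adjusted p = 0.00964).

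Of the paralogs, Rps27l, a p53 target, had 24.8, 22.6 and 26.7 CPM in nonpeptidergic nociceptors and 3.59 to 22.3 CPM elsewhere, a log2 fold change of 1.52 ± 0.29 (adjusted p = 9.42e-05). Rpl22l1, which can take the place of Rpl22, had 13.5, 13.5 and 12.6 CPM there and 1.94 to 13.1 CPM elsewhere (1.18 ± 0.33, adjusted p = 0.00413). Rpl7l1 was higher by 0.55 ± 0.18 (adjusted p = 0.0129), but stood at -0.00286 in a fit with a score of satellite glia markers as covariate. Rpl3l, the muscle form of Rpl3, averaged 5.46 counts per library, was at 0 in all 3 peptidergic libraries and reached 0.544 CPM in RA library 1, so no fold is given for nociceptors. Rpl10l, a testis gene, had 1 count over all libraries. Rpl39l averaged 2.85 counts per library, with 27 counts in SA1 library 1, 21 in proprioceptor library 3 and at most 7 in any other.

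**Figure D3:**
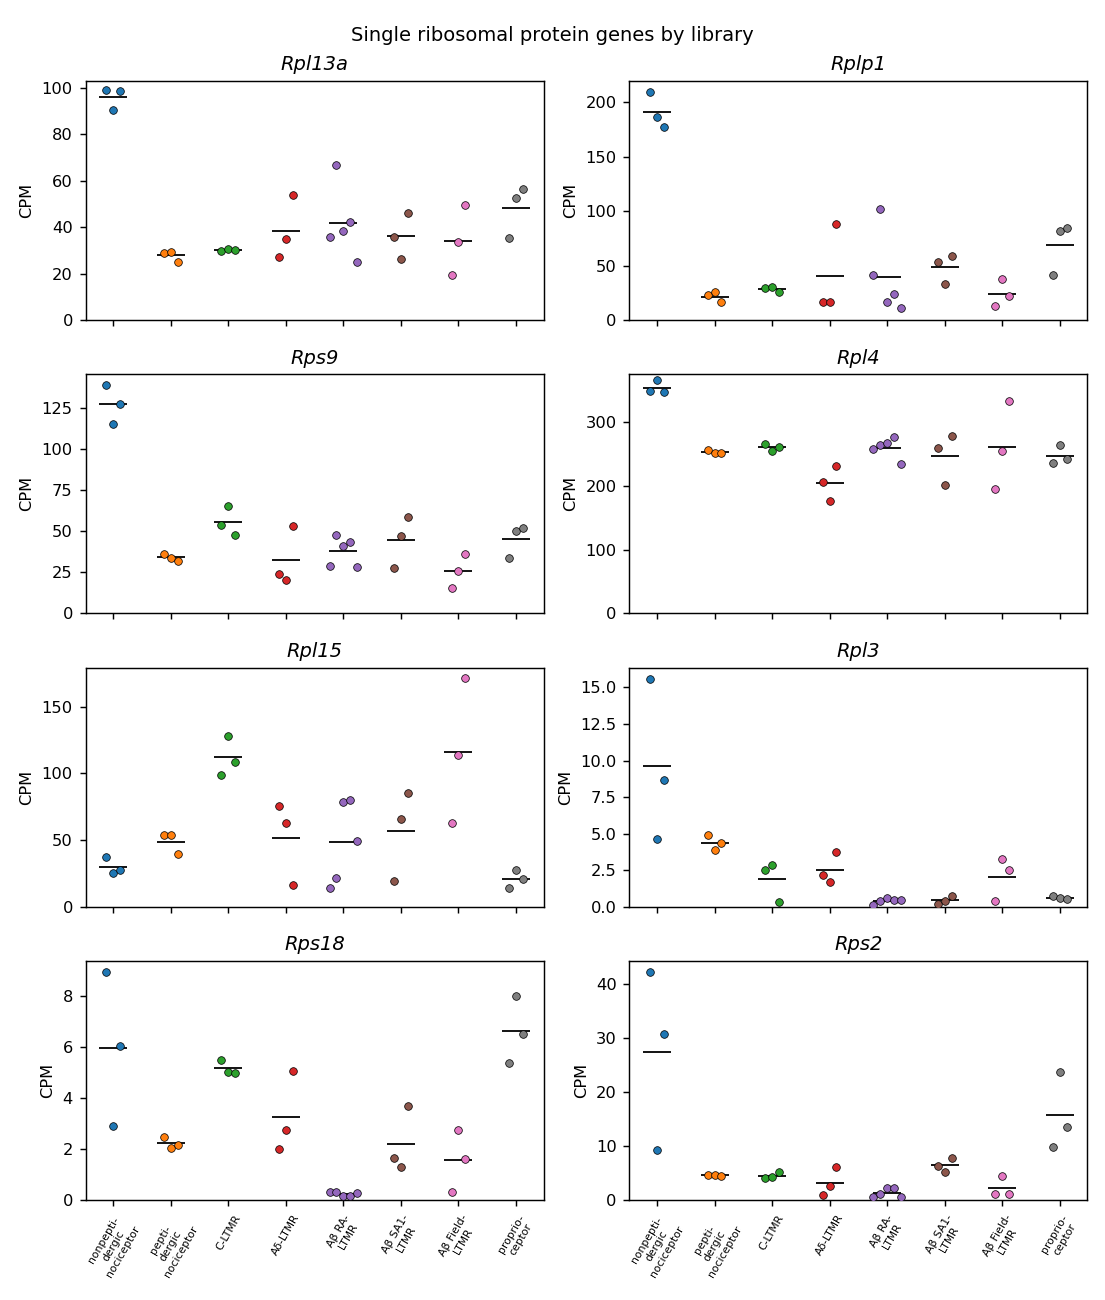
Level in CPM of 8 members in each library (y axes, linear, each from 0), by subtype (x axis), with a line at each group mean. Rpl13a, Rplp1 and Rps9 separate the nonpeptidergic libraries from all others, Rpl4 does so by a small step, Rpl15 is highest in C-LTMRs and Field-LTMRs, and Rps18 is nearly absent in all 5 RA-LTMR libraries.

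Pair by pair, the nonpeptidergic libraries had more members higher than lower against each other subtype, fewest against proprioceptors. Against peptidergic nociceptors 64 were higher (18.5% of all genes), against Field-LTMRs 63 (20.2%), against C-LTMRs 58 (17.2%), against RA-LTMRs 58 (25.1%), against Aδ-LTMRs 56 (19.8%) and against SA1-LTMRs 45 (23.4%). Against proprioceptors the count was 23 of 79 (21.5% of all genes) and the median log2 fold change 0.66. These pairs share the nonpeptidergic libraries. Higher in nonpeptidergic nociceptors than in each of the other 7 subtypes by its own test were 15 members, beside 4.62% of all genes, among them Rpl4, Rpl11, Rpl13a, Rpl18, Rpl21, Rpl22, Rpl23, Rpl30, Rpl31, Rpl36a, Rpl39, Rps3, Rps9 and Rps26. That count was 24 without Aδ library 3, 6 without proprioceptor library 1, and 8 without nonpeptidergic library 1 or 3 or SA1 library 2.

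The 11 tested rows that were not higher in nonpeptidergic nociceptors were Rpl5, Rpl9, Rpl10, Rpl15, Rpl23a, Rpl27, Rpl27a, Rpl3l, Rps6, Rpsa and the row labelled Rpl24. Most were counted at a few CPM or less. Rps6, the S6 kinase substrate often used to mark active neurons, had 0.303, 0.370 and 0.232 CPM in nonpeptidergic nociceptors and 0.101 to 0.843 CPM elsewhere, a mean of 18.6 counts per library. Rpsa, also a laminin receptor, had 2.55, 2.77 and 2.35 CPM and 0.698 to 3.18 CPM. Of members with a mean of 10 to 100 counts per library, 13 of 20 were higher, against 35 of 36 with a mean of 100 to 1000 counts and 20 of 22 at 1000 or more.

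Among members with a mean of 1000 counts or more, leaving out the row labelled Rpl24, Rpl15 alone ran against the others over subtypes. Its correlation with the mean of the other members was -0.61 over subtype means. Rpl27a, with a mean of 844 counts per library, followed the others weakly (0.19) and was not higher in nonpeptidergic nociceptors. Rpl15, which sits deep in the large subunit, had 98.9, 128 and 109 CPM in C-LTMRs and 62.6, 114 and 171 CPM in Field-LTMRs. It had 37.2, 25.2 and 27.7 CPM in nonpeptidergic nociceptors, 53.5, 53.5 and 39.3 CPM in peptidergic nociceptors and 13.8, 27.5 and 21.1 CPM in proprioceptors. The C-LTMR and proprioceptor libraries did not overlap, and within Aδ-LTMRs (75.3, 62.8 and 16.5 CPM) and RA-LTMRs (78.8, 80.0, 49.5, 14.2 and 21.4 CPM in libraries 1 to 5) the libraries low for Rpl15 included those high for most other members. Against the other 7 subtypes it was higher in C-LTMRs (log2 fold change 1.25 ± 0.38, adjusted p = 0.0129) and in Field-LTMRs (1.31 ± 0.38, adjusted p = 0.0182) and lower in proprioceptors (-1.52 ± 0.49, adjusted p = 0.0157). In nonpeptidergic nociceptors its log2 fold change was -0.92 ± 0.46 (adjusted p = 0.108). The row labelled Rpl24 had 30.1, 27.9 and 31.9 CPM in nonpeptidergic nociceptors and 30.1 to 64.6 CPM elsewhere.

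Rps18, Rpl29 and Rpl3 had wide swings between subtypes at low levels. Rps18, at the head of the small subunit, had 0.145, 0.146, 0.276, 0.311 and 0.312 CPM in RA-LTMR libraries 1 to 5, against 0.323 to 8.91 CPM in the others, and Field library 1 was the lowest of these. Rpl29, a small basic protein of the large subunit, had 0.200, 0.377, 0.332, 0.178 and 0.593 CPM in RA-LTMRs, and 0.185 CPM in Field library 1 and 0.267 CPM in Aδ library 1. Both were lower in RA-LTMRs than in the other 7 subtypes (log2 fold changes -3.85 ± 0.44 and -3.64 ± 0.59, adjusted p = 1.1e-07 and 2.48e-05). They were also the 2 members lower there than in each of the other 7 by its own test, beside 0.304% of all genes. Rpl3, which shapes the peptidyl transferase centre, had 15.6, 4.67 and 8.68 CPM in nonpeptidergic nociceptors and 4.89, 3.90 and 4.38 CPM in peptidergic nociceptors. It was at 0.726 CPM or less in every RA-LTMR, SA1-LTMR and proprioceptor library. Rpl3, Rpl29, Rps2 and Rps18 were chosen for this description after their values were seen.

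Between the A-fibre subtypes (Aδ-LTMR, the 3 Aβ groups and proprioceptors) and the small-diameter subtypes (both nociceptor groups and C-LTMRs), fewer members were called than among all genes. In A-fibre neurons 3 of 79 were higher and 16 lower, beside 28.4% and 28.1% of all genes, and the median log2 fold change was -0.20 (all genes 0.02). Without Aδ library 3 the count of lower members was 25. It was 6 with read-length class as a covariate, where the median turned to 0.13 (4816 of all 17411 genes were lower). It was 0 in the fit with the glia score (818 of all genes). With limma on log2(RPKM + 0.1) and log2(RPKM + 1) it was 32 and 33 of 76 members, beside 5170 and 5198 of 13495 genes. The 3 higher were Rpl38 (0.51 ± 0.21, adjusted p = 0.0448), Rps29 and the muscle paralog Rpl3l. Among the 16 lower, Rps2 fell by 1.08 on the log2 scale (SE 0.29, adjusted p = 0.00243), Rps9 by 0.77 (SE 0.16, adjusted p = 0.000178) and Rpl30 by 0.64 (SE 0.19, adjusted p = 0.00508). Others at a mean of 5 CPM or more included Rpl27a, Rps15a, Rps3, Rpl22 and Rpl4. The nonpeptidergic libraries are 1 of the 3 small-diameter groups and enter this contrast as well.

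In proprioceptors 18 members were higher and 3 lower than in the other 7 subtypes, beside 23.2% and 17.3% of all genes, a share of higher calls near the background. The median log2 fold change was 0.47 (all genes 0.06). Among transcripts under 750 bases it was 0.65 for members (34.2% higher) and 0.72 for other coding genes (46% higher). Rps2 (1.83 ± 0.37, adjusted p = 0.000314) and Rpl26 (1.63 ± 0.47, adjusted p = 0.00732), whose own protein binds p53 mRNA, had the largest folds at 5 CPM or more. Library 1 lay below the other two for most members, with 0.117% of counts in ribosomal protein genes, against 0.215% in each of libraries 2 and 3, and with 53.8% of its reads exonic it was 1 of the 5 libraries under 60%. Without proprioceptor library 2, or without library 3, 8 members were higher, and without Aδ library 3 the count was 34. In the fit with the glia score the count was 0, beside 343 of all 17411 genes, and Rpl26 was at -0.47.

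The remaining subtypes had few members called. In peptidergic nociceptors 1 was higher (Rpl3) and 14 lower, beside 18.8% and 15.1% of all genes, with a median of -0.53. Among transcripts under 750 bases the median there was -0.63 for members and -0.58 for other coding genes. Rpl26 had 1.71, 3.65 and 0.384 CPM there, a log2 fold change of -2.09 ± 0.65 (adjusted p = 0.0147). The 14 became 4, 5 and 2 without peptidergic library 1, 2 and 3, and 9 without nonpeptidergic library 3 or C-LTMR library 2. In C-LTMRs 2 were higher (Rpl15 and Rps18) and 3 lower (Rpl10a, Rpl38 and Rps29), beside 19.6% and 15.9%. Without one of the C-LTMR libraries 1, 2 and 3, the lower members numbered 1, 1 and 0, and without SA1 library 2 they numbered 5.

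In Aδ-LTMRs 0 members were higher in edgeR's test and 3 lower, beside 16.5% and 5.88% of all genes. Higher at an unadjusted p under 0.05 was 1 member, DESeq2 called 0 higher, and limma on log2(RPKM + 1) called 1. The lower members, Rpl4, Rpl7a and Rpl30, became 33 without Aδ library 3, where the median log2 fold change was -0.72, and 1 without library 1 or 2. Libraries 1 and 2 are those read to 51 bases, and 61.4% and 74.5% of their reads mapped, against 93.8% in library 3. In RA-LTMRs 3 were higher and 10 lower (20.4% and 15.5% of all genes), with 21 lower without library 5 and 6 without library 3. In SA1-LTMRs 5 were higher and 1 lower (17.3% and 14.9%), and the higher members numbered 3, 8 and 2 without SA1 library 1, 2 and 3 and 9 without Aδ library 3. In Field-LTMRs 2 were higher and 6 lower (11.8% and 5.77%), and the lower members numbered 0 without Field library 1, 1 without library 2, and 2 or 3 without any 1 of 11 libraries of other subtypes.

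Rpl10a, whose ribosomes have been studied as a distinct pool in mouse stem cells, was higher in SA1-LTMRs (8.07, 7.26 and 8.76 CPM; log2 fold change 0.72 ± 0.18, adjusted p = 0.00376) and in RA-LTMRs (7.84, 7.97, 4.81, 5.73 and 8.52 CPM; 0.49 ± 0.15, adjusted p = 0.0142). On the authors' RPKM, which tracked the CPM of this gene poorly, neither call passed, and the SA1 difference was -0.00250 on log2(RPKM + 1) (limma, adjusted p = 0.995). Its nonpeptidergic libraries had 8.75, 8.58 and 11.3 CPM. With read-length class as a covariate, 42 of 79 members were lower in peptidergic nociceptors, 30 in C-LTMRs and 28 in Field-LTMRs. Beside these, 3258, 3414 and 1410 of all 17411 genes were lower. In that fit 1 member was higher in nonpeptidergic nociceptors than in each other subtype, beside 559 of all genes.

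Members moved together from library to library. Each member's log2 CPM was correlated with the mean of the other members over the 26 libraries, which share depth and scaling. Over the 78 tested rows other than the one labelled Rpl24, the median r was 0.83, and 56 had an r of at least 0.7. After each subtype's mean was taken off, the median r was 0.82. Rpl15 had the lowest r at -0.42, and the others under 0.3 were Rpl3l, Rpl5, Rps6 and Rpl10, all with a mean under 100 counts. The row labelled Rpl24 had an r of -0.84. No such r over libraries is given for other genes, and whether the shared movement is particular to the members was not tested. Other coding transcripts under 1000 bases took 5.51% of coding counts in RA library 5, against 2.66% to 3.99% in the other RA libraries. They took 5.49% in Aδ library 3, against 2.99% and 3.21% in Aδ libraries 1 and 2.

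The transcripts of these genes are short, so their values were set beside transcript length and library quality, whose part in the results was not tested. The median length of the 79 rows was 774 bases and 74.7% were under 1000 bases, against a median of 2749 bases and 7.18% for the other protein-coding genes tested. Other coding genes with transcripts under 750 bases also leaned upward in nonpeptidergic nociceptors, with a median log2 fold change of 0.58 and 43.4% higher. Members of that length had a median of 1.36, and 36 of 38 were higher. From 750 to 1000 bases the medians were 1.25 for members (17 of 21 higher) and 0.51 for other genes (44.4% higher). For other genes of 4000 bases or more the median was -0.22. In proprioceptors the medians under 750 bases were 0.65 for members and 0.72 for other genes. In the same order they were -0.63 and -0.58 in peptidergic nociceptors, -0.42 and -0.57 in C-LTMRs, and 0.10 and 0.09 in SA1-LTMRs. They were -0.62 and -0.12 in Field-LTMRs, -0.22 and 0.06 in RA-LTMRs, and -0.12 and -0.02 in Aδ-LTMRs. With an offset for the trend with length in each library, 61 of 79 members remained above the threshold in nonpeptidergic nociceptors. Under 750 bases the medians there were then 0.99 for members and 0.21 for other genes. Other genes of 4000 bases or more were at 0.02, so the trend was reduced and not removed. In SA1-LTMRs the offset raised the median of other genes under 750 bases from 0.09 to 0.25.

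**Figure D4:**
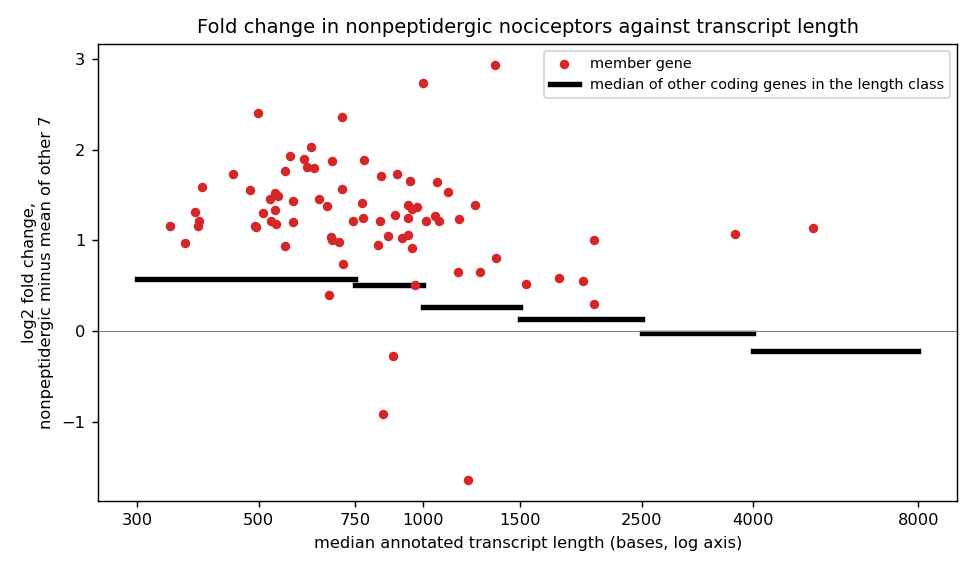
Log2 fold change of nonpeptidergic nociceptors minus the mean of the other 7 subtypes (y axis) against transcript length in bases (x axis, log scale), for the members tested (red points), with black lines at the median of other protein-coding genes in each length class. Members under 750 bases have a median of 1.36 and other coding genes of that length 0.58. The row labelled Rpl24 is left out.

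Short transcripts outside the family were measured beside the members. Other coding transcripts under 1000 bases took 5.91%, 5.73% and 5.96% of coding counts in the nonpeptidergic libraries, against 4.29%, 5.97% and 6.11% in the proprioceptor libraries and 5.49% in Aδ library 3. The members took 0.421%, 0.384% and 0.416% of coding counts in nonpeptidergic nociceptors, against 0.188%, 0.297% and 0.303% in proprioceptors and 0.281% in Aδ library 3. The part of transcript length in the result was not tested by these shares. The exonic share of reads was 65.7% to 67.2% in nonpeptidergic libraries and 45.7% to 82.9% elsewhere. Without the 5 libraries under 60% exonic, 31 of 80 members tested were higher in proprioceptors, beside 4028 of all 17795 genes. In RA-LTMRs 26 members were lower in that fit, beside 2450 of all genes.

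The satellite glia list was lowest in nonpeptidergic nociceptors, where the members were highest. Its mean was 4.16 ± 0.21 on the log2 CPM scale in nonpeptidergic nociceptors (SD, 3 libraries), against 5.24 ± 0.17 in C-LTMRs, 5.83 ± 0.36 in peptidergic nociceptors and 7.41 ± 0.20 in proprioceptors, with the other subtypes between these. Proprioceptors, the subtype highest in glial markers, were second in ribosomal protein share. With the glia score as a covariate 6 of 79 members stayed higher in nonpeptidergic nociceptors, while the median log2 fold change was 1.70. Calls fell over all genes as well, with 586 of 17411 higher in that fit, against 4534 in the main fit. The score separates the nonpeptidergic libraries from all others, and its part in the result was not tested beyond this fit.

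Most mammalian ribosomal protein genes have processed pseudogenes with nearly the same sequence, and reads from short transcripts can match several of them. Pseudogenes of the family account for 222 named rows of the counts, and 53 members have at least 1. Counting rules for reads with several matches are not given in the sources used here. Members with a named pseudogene had a median of 10.3 RPKM and the 27 without one 24.2 RPKM. In nonpeptidergic nociceptors 44 of 53 and 24 of 25 tested were higher, with medians of 1.24 and 1.24. Counts in named pseudogene rows came to 1.18 to 2.56 per 100 member counts.

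Levels per length are uncertain for single members. The mean RPKM divided by the mean CPM per kilobase of annotated transcript had a median of 1.33, but ran from 0.0759 for Rps27 to 15.2 for Rps15a. Across libraries, the authors' RPKM and the CPM of a gene had a median r of 0.95 on the log2 scale, and 4 rows (Rpl5, Rps27, Rpl10a and the one labelled Rpl24) were under 0.7. The lowest mean levels per length were those of Rpl10l (0.00075 RPKM), Rps27 (0.0571 RPKM), Rpl39l (0.116 RPKM), Rpl3l (0.135 RPKM) and Rps6 (0.406 RPKM). In the annotation, 12 members overlap another coding gene, such as Rpl5 with Fam69a and Rpl13a with Gm45713, and so does the row labelled Rpl24. Strand use in counting is not given in the sources used here, so reads of overlapping genes cannot be told apart.

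Family members outside the rule were looked at after the values were seen. Rpl13 had 22.7, 21.9 and 21.8 CPM in nonpeptidergic nociceptors and 2.12 to 10.3 CPM elsewhere (log2 fold change 1.94 ± 0.20, adjusted p = 9.02e-09). Rps3a1 had 57.6, 49.8 and 39.2 CPM there and 6.19 to 33.8 CPM elsewhere (1.48 ± 0.23, adjusted p = 7.52e-06). Neither overlapped. Rpl36al, a paralog of Rpl36a, had 22.4 to 23.4 CPM there, but 24.0, 26.7 and 23.5 CPM in proprioceptors. The gene that GENCODE names Rpl24 had 184 counts over all libraries.

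Among the lists of other translation genes, those that share the TOP tract or bind the ribosome had the highest median log2 fold change in nonpeptidergic nociceptors (0.89). Of 20 such genes tested, 13 were higher there in edgeR's test, where 26.0% of all genes were higher and 22.9% lower. Lower were 0, also at an unadjusted p under 0.05, and DESeq2 called 1 lower. Gnb2l1, which encodes Rack1, a scaffold on the small subunit, had 185, 163 and 178 CPM in nonpeptidergic nociceptors and 29.3 to 127 CPM elsewhere (1.52 ± 0.21, adjusted p = 1.18e-06). Btf3, part of the nascent-chain complex, was higher by 1.44 ± 0.23, Naca, its partner, by 0.90 ± 0.21, Fau, the precursor of Rps30, by 1.18 ± 0.30 and the host gene Gas5 by 1.26 ± 0.36. Tpt1 (0.01 ± 0.17), Pabpc1 (0.05 ± 0.15) and Npm1 (-0.39 ± 0.27) did not pass.

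Elongation factors split by isoform. Eef1a1, which brings aminoacyl-tRNA to the ribosome, had 335, 304 and 342 CPM in nonpeptidergic nociceptors, 239, 227 and 228 CPM in peptidergic nociceptors and 188, 169 and 176 CPM in C-LTMRs, against 67.9 to 165 CPM in the A-fibre libraries. In A-fibre subtypes it fell by 1.21 on the log2 scale (SE 0.11, adjusted p = 1.04e-09). Eef1a2, the form that replaces it in mature neurons and muscle, was higher in A-fibre subtypes by 0.83 ± 0.13 (adjusted p = 8.28e-06), with 105 to 263 CPM in A-fibre libraries and 64.2 to 105 CPM in small-diameter libraries. In nonpeptidergic nociceptors, where 26.0% of all genes were higher and 22.9% lower, 5 of the 10 elongation genes were higher and 2 lower. Of 37 initiation genes 13 were higher and 1 lower (median 0.17), with Eif4a1, a helicase, at 1.35 ± 0.20. Of 39 ribosome biogenesis genes 9 were higher and 4 lower (median 0.16), a share of higher calls no larger than that of all genes, and Polr1a, the large subunit of RNA polymerase I, was lower at -0.84 ± 0.19.

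Genes of mTORC1 signalling, which acts on TOP mRNAs, were called in both directions, 15 higher and 3 lower of 25 in nonpeptidergic nociceptors (median 0.59), beside 26.0% and 22.9% of all genes. Deptor, an inhibitor bound to mTOR, was higher by 1.66 ± 0.19, and so were Rhebl1 (2.36 ± 0.27) and Rheb (0.67 ± 0.16), small GTPases that activate the complex, and Myc (1.05 ± 0.16), a driver of ribosome synthesis. Larp1, which binds TOP tracts, was higher by 0.41 ± 0.11. Rps6kb1, the kinase of Rps6, was lower (-0.87 ± 0.18, adjusted p = 0.000267), as was Rptor, the complex's scaffold (-0.54 ± 0.15). In A-fibre subtypes Deptor fell by 1.74 (SE 0.15) and Myc by 1.30 (SE 0.12). With a TOP tract found, members had a median log2 fold change of 1.26 in nonpeptidergic nociceptors (23 of 26 higher), and members with an entry but no tract 1.22 (26 of 32).

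Genes for the mitochondrial ribosome and for nuclear-encoded respiratory subunits are also short (median 1224.5 and 745 bases). Both lists had their highest subtype median in proprioceptors, where the members had theirs in nonpeptidergic nociceptors. Of the lists of related genes, the mitochondrial ribosomal genes still followed the members most closely over subtype means. Their median r was 0.62, beside 0.40 for the respiratory genes and 0.049 for all genes compared. Like the members (-0.53 and -0.34), they had negative medians in peptidergic nociceptors (-0.82) and C-LTMRs (-0.56). Other coding genes under 750 bases had medians of -0.58 and -0.57 in those subtypes. In nonpeptidergic nociceptors 31 of 75 mitochondrial ribosomal genes were higher and 4 lower (median 0.48), and 12 of 79 respiratory genes were higher and 4 lower (median 0.12), beside 26.0% and 22.9% of all genes. The respiratory genes thus had a smaller share of higher calls than all genes. In proprioceptors 51 of 75 mitochondrial ribosomal genes and 74 of 79 respiratory genes were higher, beside 23.2% of all genes, with medians of 0.59 and 1.19. In peptidergic nociceptors 57 and 72 were lower (15.1% of all genes), and 69 respiratory genes were higher in the A-fibre contrast (28.4% of all genes), with Cox5a, a subunit of cytochrome c oxidase, at 1.64. In the opposite direction these 5 counts were 0 in edgeR's test, at an unadjusted p under 0.05 and in DESeq2. The cytosolic ribosomal protein genes, of nearly the same length, had 3 higher and 16 lower in that contrast.

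**Figure D5:**
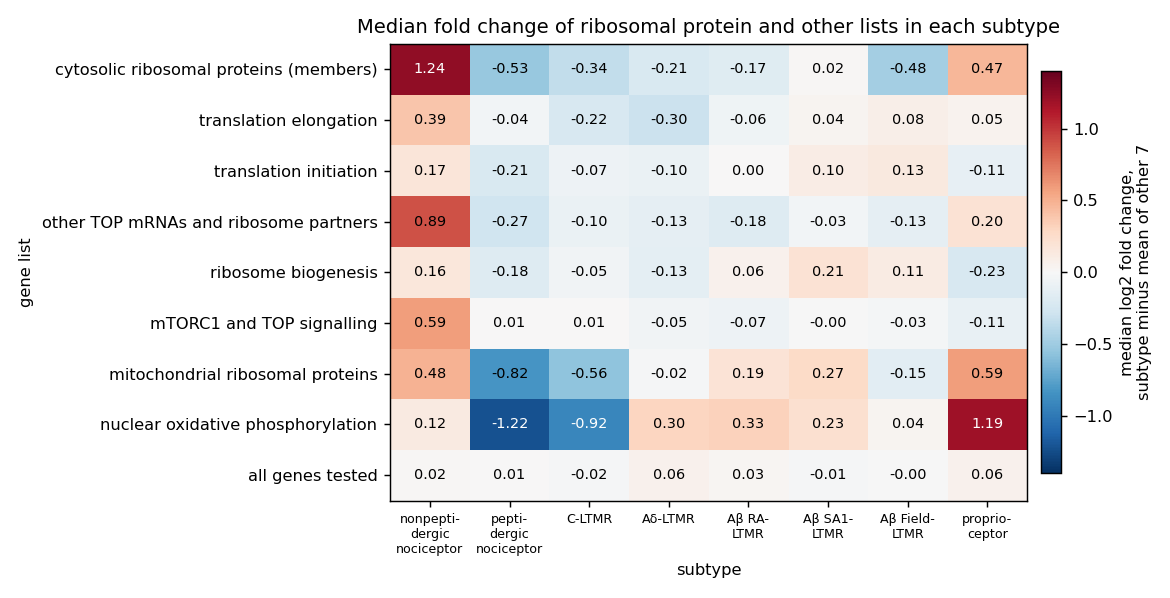
Median log2 fold change of each subtype minus the mean of the other 7 (colour scale and printed number), with the cytosolic ribosomal protein genes and the lists of related genes in rows and the subtypes in columns. The members reach 1.24 in nonpeptidergic nociceptors, while the respiratory genes reach 1.19 in proprioceptors and -1.22 in peptidergic nociceptors.

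Outside the family, the genes at a mean of 5 CPM or more whose subtype means followed the members' mean most closely were Commd10, Lyrm2, Atp6v0b, Srsf9, Smim7, Vps29, Ubb, Med11, Chtop and Gnb2l1, with Pearson r of 0.97 to 0.99 over the 8 subtypes. The r values rest on 8 points that share the nonpeptidergic maximum and were picked as the highest of 9745 genes. Ubb, a polyubiquitin gene, was higher in nonpeptidergic nociceptors by 1.84 on the log2 scale (adjusted p = 1.04e-08), and Atp6v0b, a subunit of the vacuolar proton pump, by 1.45 (adjusted p = 4.07e-06).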

How the data were processed

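Per the submitters' processing notes, reads were aligned with STAR to mm10 and counted with HTSeq 0.6.1, and DESeq2 1.14.1, Cuffdiff and FastQC 0.11.3 are also named. Which tool made which table, the strand setting and the treatment of reads with several matches are not given in the sources used here. The deposited table of counts holds whole numbers per gene and was the table tested. The deposited RPKM table is a separate quantification, used for levels per length. A deposited table on a log2 scale (regularised logarithm, per its name) served as an alternative. A deposited summary per library gave read counts, mapping as a percent, exonic and other shares as a fraction, and a 5′ to 3′ ratio.

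Counts were fitted with edgeR 4.0.16 (R 4.3.3) over all 26 libraries: filterByExpr, TMM factors, robust quasi-likelihood fit, and Benjamini-Hochberg adjustment over 17411 genes, with calls at an adjusted p under 0.05. Contrasts weighted subtypes equally, and an error after ± is an SE unless named. CPM used TMM-scaled library sizes, and log2 CPM a prior count of 2. Alternatives used DESeq2 1.42.0 and limma 3.58.1, the latter on log2(RPKM + 1) or log2(RPKM + 0.1), where low genes have compressed folds. Symbols came from the RPKM table for 38828 genes and a name table for 180, and 9 had none. Positions and transcript lengths came from GENCODE M21, and 20 members had no RefSeq promoter entry. On simulated counts for nonpeptidergic nociceptors against the other 7 subtypes (16537 genes), 97.8% and 98.0% of genes changed by -2 and 2 on the log2 scale were called, 40.4% and 51.1% of those changed by -1 and 1, and 0.0551% of unchanged genes. Replicates differed beyond counting noise in all 31 pairs (chi-square per gene at least 9.29).

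Members and lists were chosen with earlier results of these data known. Genes were named by a rule: at a mean of 5 CPM or more, the 10 smallest F-test p-values, the 10 largest folds each way between A-fibre and small-diameter subtypes and the 2 largest each way per subtype. It adds the 5 highest and lowest RPKM, all paralogs, 15 members known outside the ribosome, the top 3 each way of each list, and the 10 genes most like the members. Others were named after their values were seen, and some members are counted in every total but not reported by name here. Leaving out the 5 libraries under 60% exonic or the row labelled Rpl24, and the calls against each other subtype in turn, were also added after seeing the data.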

Additional observations from a re-analysis of the deposited data

Results flagged for a closer look

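In the 5 Aβ RA-LTMR libraries, 28 values (the named members and the share of counts) were examined for a library far from the others of its group. Of these, 6 stood apart, where chance gives about 1 in 20 for a single value. Members moved together within subtypes (median r 0.82), so the 28 values are not independent and the 6 cannot be set against that rate. All 6 are high values of RA library 5, and the number after each is the gap to the nearest library divided by the group's range, which had to be above 0.71. They are Rpl22l1 with 11.1 CPM against 2.19 to 4.44 CPM in the other RA libraries (0.749), Rpl26 with 16.7 against 1.38 to 4.59 CPM (0.791), Rpl27a with 27.4 against 9.08 to 14.3 CPM (0.716) and Rpl39 with 20.0 against 5.45 to 8.0 CPM (0.824). The others are Rps10 with 17.3 against 6.98 to 9.96 CPM (0.71 rounded) and Rps15 with 110 against 24.2 to 47.4 CPM (0.729). RA library 5 has the lowest exonic share of all libraries (45.7%) and a GC content of 51%, and the part of these in its levels was not tested. Without it, 21 members were lower in RA-LTMRs than in the other 7 subtypes, beside 10 with it.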

How the results depend on the processing

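The count of members higher in nonpeptidergic nociceptors (68) stayed between 59 and 72 under every alternative except the satellite glia covariate. That fit left 6 members and 586 of all 17411 genes, against 4534 genes in the main fit. Leaving out 1 library gave 59 to 71, and for the 8-subtype test 62 to 74.

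The smaller counts moved more. Members lower in A-fibre neurons (16) numbered 25 with the gene-length offset, 32 and 33 with limma on log2(RPKM + 0.1) and log2(RPKM + 1), 9 in the most common read-length class, 6 with the read-length covariate, 0 with the glia covariate, 10 without Aδ libraries 1 and 2, and 4 at a log2 fold of at least 1. In peptidergic nociceptors (14 lower) the counts were 9 with the bias covariate, 5 with the exonic covariate, 7 with the length offset, 7 and 6 with limma on RPKM and 5 without its filter, 42 in the common class and with the read-length covariate, 5 with no filter, 9 with the glia covariate, 27 without Aδ libraries 1 and 2, and 7 with the fold. In C-LTMRs (3 lower) they were 5 in DESeq2 and on rlog, 1 with the exonic covariate, 0 and 1 with limma on RPKM, 0 without its filter, 27 in the common class, 30 with the read-length covariate, 0 with the glia covariate, 13 without Aδ libraries 1 and 2, and 6 without libraries under 60% exonic.

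In Aδ-LTMRs (3 lower) they were 10 with the length offset, 5 with limma on log2(RPKM + 1), 1 in the common class and with the fold, 0 with the read-length and glia covariates and without libraries 1 and 2, and 6 without libraries under 60% exonic. The Aδ median changed sign, to 0.33 in the common class, 0.28 with the read-length covariate and 0.39 without libraries 1 and 2. In RA-LTMRs (10 lower) they were 17 and 16 with limma on RPKM, 6 in the common class and with the read-length covariate, 22 with the replicate block, 4 with the glia covariate, 26 without libraries under 60% exonic (median -0.58), and 5 with the fold. In SA1-LTMRs (5 higher) they were 0 with the bias covariate, 11 with the length offset, 2 with limma on RPKM and 0 without its filter, and 0 with the fold, and the median was 0.44 with the read-length covariate. In Field-LTMRs (6 lower) they were 0 with the bias covariate, 10 in DESeq2, 12 and 14 with limma on RPKM, 29 in the common class, 28 with the read-length covariate, 3 with no filter, 10 without Aδ libraries 1 and 2, and 2 with the fold. In proprioceptors (18 higher) they were 8 with the length offset, 8 and 10 with limma on RPKM and 5 without its filter, 8 with the read-length covariate, 0 with the glia covariate, 31 without libraries under 60% exonic, and 10 with the fold.

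Members above each other subtype in nonpeptidergic nociceptors (15) numbered 7 with the bias covariate and with no filter, 23 with limma on log2(RPKM + 1), 8 in the common class, 1 with the read-length covariate, 0 with the glia covariate and 5 without Aδ libraries 1 and 2. The A-fibre median of -0.20 was 0.13 with the read-length covariate. With the glia covariate the medians were 1.70 in nonpeptidergic nociceptors, -0.57 in A-fibre neurons and 0.0089 in proprioceptors.

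Shares of counts without mitochondrial, rRNA and Gm26924 genes were 0.401% in nonpeptidergic nociceptors, 0.166% in peptidergic, 0.186% in C-LTMRs, 0.196% in RA, 0.194% in SA1, 0.171% in Field and 0.258% in proprioceptors. Shares of summed RPKM were 1.20% in nonpeptidergic nociceptors, 0.528% in peptidergic, 0.616% in C-LTMRs, 0.419% in Aδ, 0.348% in RA, 0.513% in SA1, 0.357% in Field and 0.668% in proprioceptors.

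Leaving out 1 library gave 13 to 25 (A-fibre lower), 2 to 17 (peptidergic lower), 0 to 5 (C-LTMR lower), 1 to 33 with medians of -0.72 to 0.024 (Aδ lower), 6 to 21 (RA lower), 2 to 9 (SA1 higher), 0 to 7 (Field lower), 8 to 34 (proprioceptor higher) and 6 to 24 (nonpeptidergic above each). Single genes that changed sign were Rpl10a in SA1-LTMRs (-0.00250 with limma on log2(RPKM + 1), with and without its filter), and Rpl26 (-0.47) and Rps27l (-0.16) in proprioceptors and Rpl7l1 in nonpeptidergic nociceptors (-0.00286) with the glia covariate. The causes were not tested.

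The replicate block used the numbers in the labels, but same-numbered libraries did not deviate together (median r 0.009, against -0.0059 for different numbers), so the numbers do not pair the libraries. Tests of members with few counts rest on few reads, and the reason for their low counts was not tested.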
